A study of Mus musculus with 4 samples.

Results

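The genes described here encode the machinery that writes and reads methylation of histone H3 at lysine 9 (H3K9) and keeps heterochromatin silent. They were named in advance as Setdb1, Ehmt1, Ehmt2, Suv39h1, Suv39h2, Trim28, Cbx1, Cbx3, Cbx5 and Atrx, 10 genes in all. A gene was taken as measured where the platform annotation gave a probe set exactly 1 gene symbol, and where a gene had several such probe sets it was represented by the brightest on average over the arrays. By this rule 9 of the 10 genes were measured, on 15 of the 35556 probe sets of the array and among 19938 genes represented in the same way. Suv39h1 was not analysed here.

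The cells were mouse E14 embryonic stem cells, an established line, grown on mitomycin-inactivated primary embryonic fibroblasts in medium with serum and leukemia inhibitory factor. Untreated cells gave 2 arrays, and cells given 0.5 mM valproic acid (VPA), a branched short-chain fatty acid and an inhibitor of histone deacetylases, gave 2 arrays after 4 h. The untreated arrays are labelled 4 h as well. The series compares these groups to learn what a low, short exposure does to gene expression. The labels name no separate cultures, so the spread between replicates may be technical. In RNA from whole dishes, fewer cells of a type and less RNA per cell cannot be told apart.

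As background, methylated H3K9 is the chemical mark of silent chromatin. Setdb1 writes it at endogenous retroviruses, where the corepressor Trim28 brings it through zinc finger proteins that bind DNA. Ehmt1 and Ehmt2 (GLP and G9a) work as a pair and write the lower methylation states in euchromatin, and the Suv39h enzymes trimethylate pericentromeric repeats. HP1 proteins, encoded by Cbx1, Cbx3 and Cbx5, bind the mark, and Atrx is a remodeller that places a variant histone H3 at repeats and telomeres. In embryonic stem cells this system holds retroviral elements and germline genes silent.

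All 10 genes matched a promoter in the RefSeq table of GRCm38.p6, with 14 start sites between them. The 250 bases before these starts held between 6 and 36 CG dinucleotides (median 20), where the median of 32851 promoters of the same length is 6.0. The promoters of Trim28 and Cbx1 are shown because these are the 2 genes whose groups did not overlap. That of Trim28 lies at chr7:13023902-13024151 (plus strand) and that of Cbx1 at chr11:96788885-96789134 (plus strand). Capitals mark each CG dinucleotide, which reads the same on both strands.
Trim28: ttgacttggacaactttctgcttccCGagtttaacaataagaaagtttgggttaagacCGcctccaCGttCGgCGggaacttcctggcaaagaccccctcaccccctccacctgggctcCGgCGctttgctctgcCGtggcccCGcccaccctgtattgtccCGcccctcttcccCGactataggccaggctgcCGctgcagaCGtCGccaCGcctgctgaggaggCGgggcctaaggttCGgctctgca
Cbx1: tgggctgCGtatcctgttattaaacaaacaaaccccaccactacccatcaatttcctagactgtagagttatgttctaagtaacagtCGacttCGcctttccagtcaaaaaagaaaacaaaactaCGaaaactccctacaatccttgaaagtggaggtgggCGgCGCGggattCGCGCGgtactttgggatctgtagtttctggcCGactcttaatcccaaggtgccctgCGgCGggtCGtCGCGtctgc
The Trim28 sequence held 17 CG dinucleotides, a number reached by 23.5% of all promoters, and the Cbx1 sequence held 16, reached by 25.4%. Atrx had the fewest, at 6, which 50.4% of promoters reach. These letters describe the promoters and were not tested against the expression values.

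The transcripts of the H3K9 machinery differed little between untreated and VPA-treated cells. The differences of the 9 genes, VPA minus untreated on the log2 scale, lay between −0.13 for Cbx1 and 0.058 for Cbx3. In linear terms these are 0.915-fold and 1.04-fold. The 95% intervals of the single genes, on the brightest probe set of each, reached no lower than 0.744-fold (Atrx) and no higher than 1.39-fold (Cbx3). Among the other Cbx3 probe sets they reached down to 0.683-fold. These intervals rest on replicates whose spread may be technical, so they do not bound changes between separate cultures. With limma and Benjamini-Hochberg adjustment over all probe sets, 0 of the 9 genes passed an adjusted p of 0.05, and the smallest adjusted p among them was 0.773. The background was 0 called probe sets of 35556, which is 0% of the table. At an unadjusted p under 0.05 there were 0 of 9 genes, against 9.19% of all probe sets.

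Over the 9 genes, 4 had a higher and 5 a lower mean with VPA, beside 53.7% and 46.3% of all genes. The median difference was −0.0011 (−0.10 without untreated replicate 2), beside a median of 0.008 over all probe sets. After a second quantile normalization only Cbx3 of the 9 genes was above 0. The median was then −0.050, beside −0.008 over all probe sets. The median size of the difference was 0.037 for these genes and 0.128 for all probe sets. In 8 of the 9 genes the difference was smaller than the larger of the gaps between replicates, as it was for 72.1% of all probe sets. The groups did not overlap in 2 of the 9 genes, both lower with VPA, against 18.7% of probe sets that lay lower without overlap and 40.4% in either direction. At a difference of 1.5-fold or more without overlap there were 0 of 9 genes, against 2.78% of all probe sets. None of the 9 genes was higher without overlap, where the background was 21.7%. Of the 4487 genes at least as bright as the dimmest of the 9, 1560 were higher and 701 lower without overlap. The median difference of these brighter genes was 0.073.

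**Figure D1:**
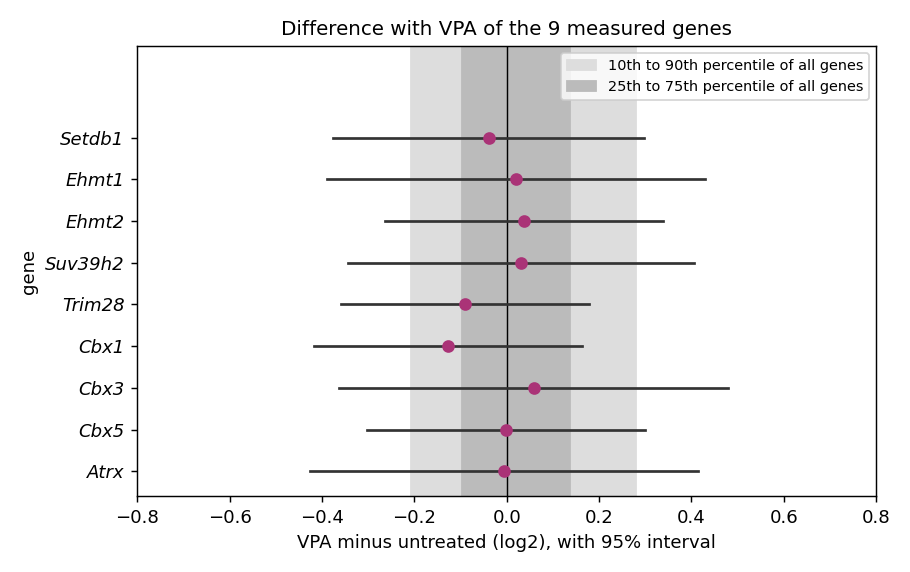
Difference between VPA and untreated cells on the log2 scale for the 9 measured genes (points) with 95% intervals from limma (lines), over bands that hold the 10th to 90th (−0.21 to 0.28) and 25th to 75th percentile (−0.096 to 0.14) of all 19938 genes. Every interval crosses 0, and the point of Cbx1 lies farthest from it at −0.13.

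The methyltransferases came first in order of role. Setdb1 (probe set 10500157) had log2 signals of 8.05 and 8.17 in untreated and 7.97 and 8.18 in VPA cells. The groups overlapped, with the lowest and the highest array both treated. The difference was −0.039 ± 0.13 (SE), with an adjusted p of 0.955 in limma.

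Ehmt1 (10480541) lay at 6.73 and 6.86 in untreated and at 6.99 and 6.64 in VPA cells. Its treated arrays stood 0.355 apart, the widest gap between VPA replicates among these genes, and enclosed both untreated values. The difference was 0.020 ± 0.16 (SE, adjusted p = 0.982 in limma). Its partner Ehmt2 (10444524) lay at 6.96 and 7.04 in untreated and 7.11 and 6.96 in VPA cells. The difference of Ehmt2 was 0.037 ± 0.12 (SE, adjusted p = 0.951). For both genes VPA replicate 1 was the highest array and VPA replicate 2 the lowest.

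Suv39h2 (10479765), the measured enzyme of pericentromeric heterochromatin, gave 7.29 and 7.02 in untreated and 7.10 and 7.26 in VPA cells. The untreated arrays stood 0.276 apart and enclosed both treated ones. The difference was 0.031 ± 0.15 (SE, adjusted p = 0.968 in limma). For all 4 methyltransferases the difference was therefore smaller than the spread between replicates, and its 95% interval ran at most from 0.764-fold (Ehmt1) to 1.35-fold (Ehmt1).

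**Figure D2:**
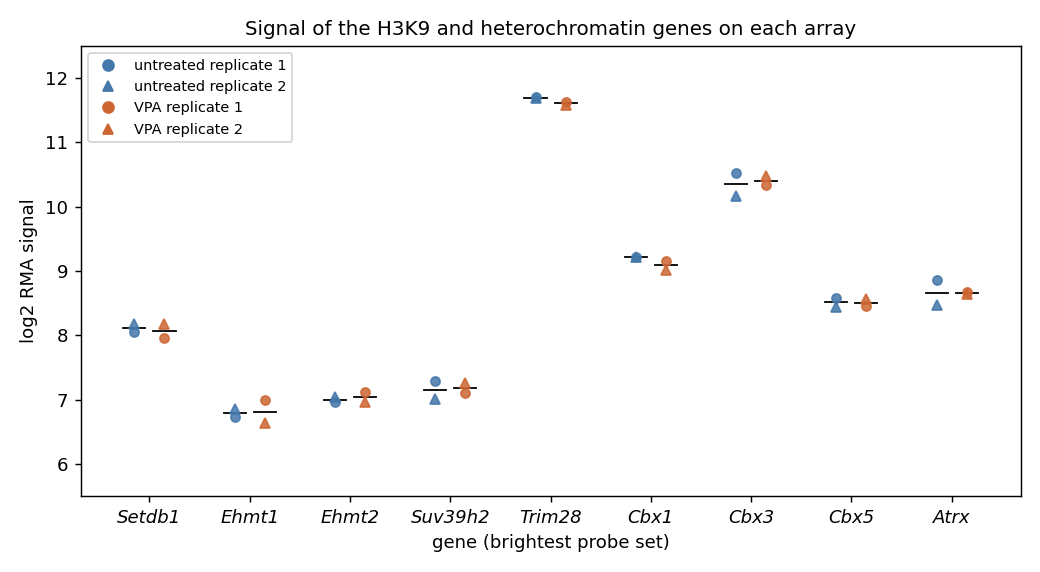
Deposited log2 signal of the brightest probe set of each gene on each of the 4 arrays, with circles for replicate 1, triangles for replicate 2 and bars for the group means. Trim28 and Cbx1 show both VPA arrays below both untreated arrays, by 0.090 and 0.13 between means, while the other 7 genes overlap, and signals of different genes also depend on their probes.

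Trim28 (10550076), the corepressor that joins zinc finger proteins to Setdb1 and HP1, had close replicates in both groups. Its signals were 11.71 and 11.68 in untreated and 11.62 and 11.59 in VPA cells. Both treated arrays lay below both untreated ones, and the replicate gaps were 0.026 and 0.034. The difference was −0.090 ± 0.10 (SE), which is 0.94-fold with a 95% interval from 0.78-fold to 1.13-fold, and the adjusted p was 0.833 in limma. The difference exceeded both gaps between replicates and did not pass the test.

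Among the HP1 genes, Cbx1 (10380689, HP1 beta) gave 9.23 and 9.21 in untreated and 9.16 and 9.02 in VPA cells. Both treated arrays were again the lower ones. The difference was −0.13 ± 0.11 (SE), or 0.915-fold with a 95% interval from 0.749-fold to 1.12-fold, and did not pass the test (adjusted p = 0.773 in limma). It was close in size to the gap of 0.14 between the treated arrays, and was −0.20 without VPA replicate 1 and −0.057 without VPA replicate 2. Cbx5 (10433088, HP1 alpha) gave 8.58 and 8.44 in untreated and 8.46 and 8.56 in VPA cells. Its untreated values enclosed the treated ones, and the difference was −0.0011 ± 0.12 (SE, adjusted p = 1).

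Cbx3 (HP1 gamma) was the one gene with several probe sets, 7 in number, all listed for the same RefSeq transcript. The brightest, 10421573, gave 10.53 and 10.16 in untreated and 10.33 and 10.48 in VPA cells. The untreated arrays stood 0.371 apart and enclosed the treated ones, and the difference was 0.058 ± 0.16 (SE, adjusted p = 0.945 in limma). The other 6 probe sets differed by between −0.058 and 0.045, so 3 of the 7 were above and 4 below 0. Group means ran from 8.45 to 10.41 over the 7 probe sets. Untreated replicate 1 lay above untreated replicate 2 in 7 of 7, and VPA replicate 2 above VPA replicate 1 in 7 of 7. Of these probe sets 2 carried identical values on every array, and near-identical copies of the gene could share the signal, so the probe sets are not independent measurements and their assignment to Cbx3 is uncertain.

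**Figure D3:**
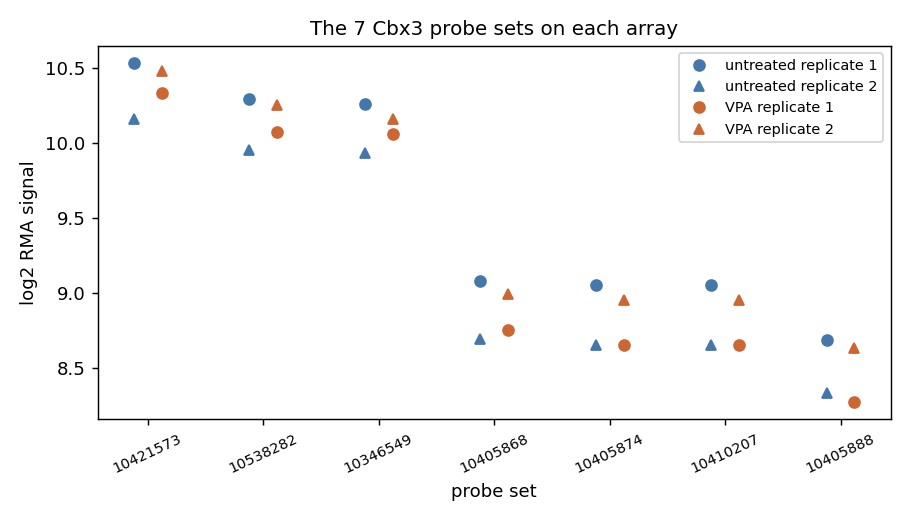
Log2 signal of the 7 probe sets listed for Cbx3 on each array, ordered by mean signal, with circles for replicate 1 and triangles for replicate 2. In all 7 the untreated arrays stand apart, replicate 1 above replicate 2, and the VPA arrays do not separate from them.

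Atrx (10606263) gave 8.86 and 8.47 in untreated and 8.67 and 8.65 in VPA cells. The untreated gap of 0.394 was the widest between untreated replicates of any of the 9 genes, and both treated arrays lay inside it. The difference was −0.0056 ± 0.16 (SE, adjusted p = 0.995 in limma). Of the 9 genes, 6 had their highest signal on untreated replicate 1 and 0 on untreated replicate 2, while 4 had their lowest on untreated replicate 2 and 4 on VPA replicate 2. For scale, replicate 1 minus replicate 2 had an SD of 0.311 over all probe sets of the untreated pair and 0.285 over those of the VPA pair.

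The signals of the 9 genes, averaged over the arrays, lay between percentile 79.9 (Ehmt1) and percentile 99.1 (Trim28) of mean signal over all probe sets. No detection calls were used here, and signals of different probe sets are not ordered as amounts of RNA. Embryonic stem cell markers were bright on every array, with 8 of 8 measured between percentiles 91.6 and 99.7. The groups did not overlap in 5 of the 8, 1 higher and 4 lower with VPA, against 21.7% and 18.7% of all probe sets. Nanog, a core pluripotency factor, differed by −0.48 ± 0.14 (SE) and was 1 of these 5. It was the 1 of the 8 with an unadjusted p under 0.05 (adjusted p = 0.503 in limma), against 9.19% of all probe sets. Of the fibroblast feeder markers 12 of 12 were measured. Their summed linear signal was 1834 and 2014 on the untreated and 1832 and 1775 on the VPA arrays. Fn1 and Sparc, the brightest, weighed most in this sum, which is not a measure of feeder content. The probe sets of the feeder markers ranged from percentile 2.74 (Lum) to 96.5 (Fn1), with Sparc at 93.5 and Col1a1 at 79.0. Thy1 differed by 0.31 ± 0.12 and Ccdc80 by −0.31 ± 0.11 (SE), the 2 of the 12 with an unadjusted p under 0.05 in limma. The groups did not overlap in 6 of the 12 feeder markers, 2 higher and 4 lower with VPA. The part of feeder RNA or of stem cell state in the values of the 9 genes was not tested.

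The wider pathway was taken from 10 lists of textbook partners and targets, of whose 58 genes 53 were measured. None of the 53 passed the adjusted test in limma. At an unadjusted p under 0.05 there were 2 higher and 2 lower, against 5.76% and 3.43% of all probe sets. The groups did not overlap in 21 of 53, beside the background of 40.4%. The median difference was 0.024.

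Partners of the methyltransferases were below their untreated level in 5 of 6 measured genes, beside 46.3% of all genes, with a median of −0.20. Of the 6, 1 had an unadjusted p under 0.05 in limma, against 9.19% of all probe sets. This was Atf7ip (10542378), the cofactor that stabilises Setdb1, with signals of 8.83 and 8.77 in untreated and 8.57 and 8.39 in VPA cells. Both treated arrays were the lower ones, and the difference was −0.32 ± 0.12 (SE, unadjusted p = 0.045, adjusted p = 0.534 in limma). The zinc finger gene Zfp462 differed by −0.27 ± 0.14 (SE), or by −0.16 with either untreated replicate 2 or VPA replicate 2 left out.

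Among the genes that bring Trim28 to DNA and its relatives, 4 of 6 measured genes were below and 2 above the untreated level. The shares over all genes were 46.3% and 53.7%. The median difference of the 6 genes was −0.093. Leaving out untreated replicate 2 gave a median of −0.23, with 5 below and 1 above. Zfp57 (10445071), which directs Trim28 to imprinted loci, gave 10.90 and 10.88 in untreated and 10.53 and 10.41 in VPA cells. The groups lay apart, by −0.42 ± 0.11 (SE, unadjusted p = 0.013, adjusted p = 0.485 in limma). Zfp809, which directs it to proviruses, differed by −0.22 ± 0.10 (SE), and none of these differences passed the adjusted test.

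Of 11 H3K9 demethylases, 6 were above and 5 below the untreated level, beside 53.7% and 46.3% of all genes. Their median difference was 0.0040. The median was below 0 with any 1 of the 4 arrays left out, between −0.057 and −0.0030, and without untreated replicate 2 the split was 4 above and 7 below. Kdm7a (10544148) gave 6.32 and 6.47 in untreated and 6.98 and 6.88 in VPA cells, both treated arrays above both untreated ones. Its difference of 0.53 ± 0.12 (SE) was 1.45-fold, with an unadjusted p of 0.0066 and an adjusted p of 0.472 in limma. Jmjd1c, of the same enzyme class, differed by −0.33 ± 0.14 (SE) and did not pass, with −0.19 when untreated replicate 1 was left out.

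Of 5 factors that carry heterochromatin through replication, 4 were above and 1 below 0, beside 53.7% and 46.3% of all genes. Their median difference was 0.037. That median was 0.20 without untreated replicate 1, 0.096 without VPA replicate 1 and 0.076 without VPA replicate 2. Chaf1b (10437040), a subunit of the histone chaperone CAF-1, gave 7.54 and 7.48 in untreated and 7.94 and 8.10 in VPA cells. The treated arrays were both higher, by 0.51 ± 0.12 (SE), or 1.42-fold, with an unadjusted p of 0.0076 and an adjusted p of 0.472 in limma. Uhrf1, which ties DNA methylation to the mark, differed by 0.13 ± 0.12 (SE), a value of 0.22 without untreated replicate 1, 0.029 without untreated replicate 2 and 0.076 without VPA replicate 2.

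The HP1-binding proteins were led by Lbr (10360745), the lamin B receptor of the inner nuclear membrane, with 9.89 and 9.18 in untreated and 10.09 and 10.06 in VPA cells. Both treated arrays were higher, and the untreated arrays stood far apart. The difference was 0.54 ± 0.25 (SE, adjusted p = 0.578 in limma), falling to 0.19 when untreated replicate 2 was left out and reaching 0.90 when untreated replicate 1 was. Sgo1, the protector of centromeric cohesion, differed by 0.056 ± 0.17 (SE) and Incenp, of the chromosomal passenger complex, by −0.082 ± 0.14 (SE).

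The remaining lists held no gene past the adjusted test. In the HUSH complex, which silences transposons together with Setdb1, Tasor differed by 0.11 ± 0.14 (SE), Pphln1 by 0.070 ± 0.13 and its effector Morc2a by −0.016 ± 0.11. Daxx, the histone chaperone that works with Atrx, differed by 0.071 ± 0.11 (SE). H3f3a, a gene of the variant histone that both deposit, was measured at percentile 15.6 of signal, with a difference of 0.0025 ± 0.11. Its signals of 2.57 to 2.63 lay below the array medians of 3.8 to 3.82, so the value does not show that the transcript was unchanged. The further methyltransferase genes Setdb2 and Prdm2 differed by 0.20 ± 0.11 and −0.16 ± 0.14 (SE), where Prdm2 was at −0.31 without untreated replicate 1 and −0.011 without untreated replicate 2. Of the enzymes that methylate histone H4 at lysine 20 in heterochromatin, Kmt5b differed by −0.30 ± 0.15 and Kmt5c by 0.14 ± 0.11 (SE). Kmt5b was at −0.13 without untreated replicate 1 and −0.47 without untreated replicate 2.

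Germline genes reported as silenced through H3K9 methylation had a higher mean with VPA in 10 of 11 measured cases, beside 53.7% of all genes. The median difference was 0.15, and 0 of the 11 had an unadjusted p under 0.05 in limma, against 9.19% of all probe sets. Their signals lay between percentile 36.4 (Tdrd1) and percentile 93 (Tuba3a), and whether these genes were silent in the cells was not tested. VPA replicate 2 was the highest array for 9 of the 11 and untreated replicate 2 the lowest for 8. Without VPA replicate 2 the median was 0.0055 with 6 of 11 above 0, and without untreated replicate 2 it was 0.0083 with 7 of 11 above 0. The members of smallest p went opposite ways. Tuba3b differed by −0.31 ± 0.14 and Tuba3a, also an alpha tubulin gene, by 0.25 ± 0.13 (SE). Tuba3b was dim, at percentile 43.8 of signal, and Tuba3a lay at percentile 93. Without untreated replicate 1 Tuba3b was at −0.17, and Tuba3a was at 0.37 without VPA replicate 1 and 0.12 without VPA replicate 2.

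**Figure D4:**
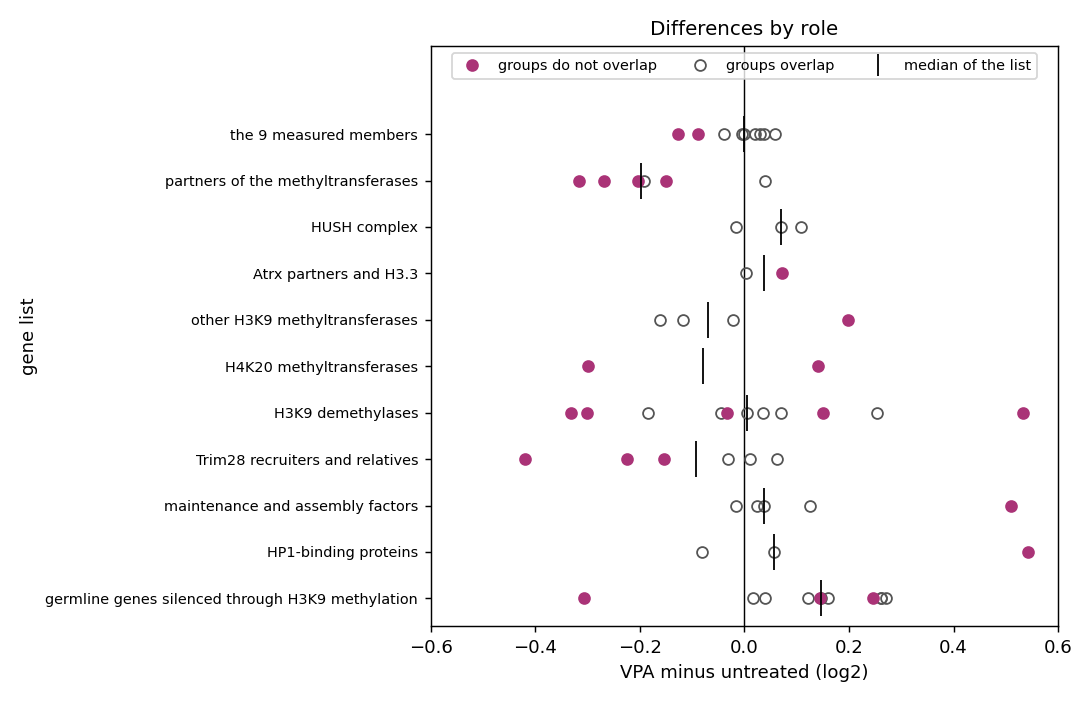
Difference between VPA and untreated cells on the log2 scale for the 9 measured genes (top) and for each of the 53 measured genes of 10 related lists, filled where the groups do not overlap, with a bar at the median of each row. The 9 genes lie between −0.13 and 0.058, and among the other lists Lbr, Kdm7a and Chaf1b lie farthest to the right at 0.54, 0.53 and 0.51 and Zfp57 farthest to the left at −0.42.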

How the data were processed

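Total RNA was labelled with biotin and read on 1-colour Affymetrix arrays, 2 per group. Per the submitters' processing notes, RMA in Affymetrix Expression Console 1.1 produced the deposited log2 signals, which the authors gave for every probe set on every array. The sources used here do not name the arrays normalized together. The deposited values ran from 1.41 to 13.95. Gene names came from the platform annotation. The values were tested unchanged in R 4.3.3 with limma 3.58.1 (lmFit, eBayes), two-sided, with treatment as the only term, Benjamini-Hochberg adjustment over 35556 probe sets and a threshold of 0.05. There were 2 residual degrees of freedom, and moderation added 2.93. An exact permutation test of 2 against 2 cannot give a p below 0.33, so the number of arrays limits the precision. The script was tested on simulated data. The genes, lists and tests were chosen with earlier results of these data known. Named were the 9 measured genes and, of each related list with 4 or more measured genes, the 2 of smallest p, and of a smaller list all. The alternatives were a second quantile normalization, median centring, leaving out dimmer probe sets, a variance trend, a replicate block, means over a gene's probe sets and leaving out each array. Same-numbered arrays deviated together with a correlation of −0.097 over probe sets, and the numbers were not taken as pairs.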

Additional observations from a re-analysis of the deposited data

How the results depend on the processing

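None of the 9 genes and none of the 53 related genes passed the adjusted test in limma under any alternative that kept all 4 arrays. Nor did any other probe set under those of them for which the whole table was counted (all but the mean over a gene's probe sets). With all 4 arrays kept, the adjusted p of the 9 genes stayed at or above 0.657. The lists as such were not tested. With the replicate block the counts of called probe sets and of called members were 0, as without it, and the smallest adjusted p was 0.677. Trim28 and Cbx1 stayed below their untreated level under all 10 alternatives, between −0.11 and −0.072 and between −0.20 and −0.057, while the other 7 genes changed sign under at least 1. After a second quantile normalization Ehmt1 was at −0.065, Ehmt2 at −0.047, Suv39h2 at −0.050, Pphln1 at −0.0063, Daxx at −0.0095 and Sgo1 at −0.017. Under the same alternative Kmt5c was at 0.078 and Morc2a at −0.063. With arrays centred on their medians H3f3a was at −0.0032, and with the mean over its probe sets Cbx3 was at −0.0082. Leaving out 1 array at a time, where the lone array is assumed to vary like the others, gave ranges of −0.15 to 0.070 for Setdb1, −0.16 to 0.20 for Ehmt1, −0.041 to 0.12 for Ehmt2, −0.11 to 0.17 for Suv39h2, −0.13 to 0.24 for Cbx3, −0.070 to 0.067 for Cbx5 and −0.20 to 0.19 for Atrx. For the related genes they were −0.038 to 0.25 for Tasor, −0.020 to 0.16 for Pphln1, −0.050 to 0.017 for Morc2a, 0.024 to 0.12 for Daxx, −0.030 to 0.035 for H3f3a, −0.23 to 0.065 for Incenp and −0.15 to 0.26 for Sgo1. The median over the 9 genes ran from −0.10 (without untreated replicate 2) to 0.00047 (without untreated replicate 1). H3f3a and Tuba3b were among the probe sets dropped with the dimmer ones. The number of the 53 related genes at an unadjusted p under 0.05 in limma was 4 in the main fit. It was 8 after a second quantile normalization, 6 with a variance trend and 3 with a replicate block. Over all 35556 probe sets the count was 3269 in the main fit, and 3212, 3253 and 2576 under these 3 alternatives. Other named related genes that moved by over 1.5 times have the moved values beside their estimates. The causes were not tested.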
